A study of Mus musculus with 12 samples.

Results

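The 10 genes described here encode transcription factors of the naive pluripotency network, namely Klf2, Klf5, Tbx3, Esrrb, Tcfcp2l1, Nr0b1, Prdm14, Nr5a2, Sall4 and Utf1. They were picked by gene symbol from the 20325 genes in the deposited tables, and all 10 had enough counts to be tested. RNA was sequenced from mouse pre-iPSCs, reprogramming intermediates that look like embryonic stem cells but have not reached the pluripotent state, after 48 h in 4 conditions, which were the solvent DMSO, ascorbic acid (AA, 50 μg/ml), 2i (1 μM of a MEK inhibitor, PD-0325901 in the methods of the study, with 3 μM of a GSK inhibitor, CHIR-99021) and both together (AA+2i). Each condition had 3 replicates, A, B and C, which gave 12 libraries.

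All 4 groups were labelled as partially reprogrammed cells, and the labels do not name the line. According to the methods of the study, pre-iPSC lines came from Nanog-GFP reporter fibroblasts given retroviral Oct4, Sox2, c-Myc and Klf4, or from astrocytes without that reporter, and which of them gave this RNA is not stated. Either kind carries reprogramming transgenes in every group, the DMSO control included. None of the 10 genes is among them. The cells were kept on irradiated feeders in serum-containing stem cell medium and were treated without feeders. The replicates are described as biological triplicates of cells, with no statement that they came from separate lines, so the p-values below measure the spread between these cultures.

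Naive pluripotent cells hold their identity through a set of transcription factors that bind each other's genes and those of Oct4 (Pou5f1), Sox2 and Nanog. The 2 inhibitors of 2i act on this network from outside. Blocking MEK quiets FGF and ERK signalling, which pushes cells towards differentiation. Blocking GSK3 stabilises β-catenin, which relieves repression by Tcf7l1 (also called Tcf3), a repressor of Esrrb, Klf2 and other members. Ascorbic acid is a cofactor of Tet enzymes and histone demethylases, which remove repressive marks from chromatin.

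The sequence before the start of transcription is shown for 3 members, because Klf2 and Esrrb are 2 of the genes that rose with AA+2i and Utf1 is the member with the most GC-rich transcript. RefSeq promoter windows (a table on GRCm38.p6) were found for 5 of the 10 members, Klf2, Esrrb, Nr0b1, Nr5a2 and Utf1. The windows were placed on mm9, the build of the deposited files, by an exact match that was unique on its chromosome, and those of Klf2 and Utf1 were ended before the annotated start of the gene. The second Esrrb window lies inside the gene, before the start of shorter transcripts. Capitals mark GGGCGG (the GC box bound by Sp and Klf proteins), CCACCC (the CACCC box of Klf proteins) and CTTTGA (the core bound by Tcf7l1 and its relatives) on either strand.
Klf2, chr8:74842711-74842931, plus strand: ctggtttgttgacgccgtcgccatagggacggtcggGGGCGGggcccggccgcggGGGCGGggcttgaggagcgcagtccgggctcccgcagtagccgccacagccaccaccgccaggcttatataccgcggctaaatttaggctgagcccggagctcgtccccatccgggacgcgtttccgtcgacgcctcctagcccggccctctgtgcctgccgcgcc
Esrrb, first start, chr12:87701817-87702066, plus strand: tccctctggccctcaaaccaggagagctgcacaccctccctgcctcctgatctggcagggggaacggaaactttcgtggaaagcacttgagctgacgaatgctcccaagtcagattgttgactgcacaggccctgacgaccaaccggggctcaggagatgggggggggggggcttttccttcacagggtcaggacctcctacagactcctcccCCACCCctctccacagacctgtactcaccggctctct
Esrrb, inner start, chr12:87762344-87762593, plus strand: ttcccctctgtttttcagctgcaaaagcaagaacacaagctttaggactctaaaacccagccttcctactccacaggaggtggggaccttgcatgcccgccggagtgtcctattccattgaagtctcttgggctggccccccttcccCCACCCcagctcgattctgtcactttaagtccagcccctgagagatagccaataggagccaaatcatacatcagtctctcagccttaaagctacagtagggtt
Utf1, chr7:147129505-147129687, plus strand: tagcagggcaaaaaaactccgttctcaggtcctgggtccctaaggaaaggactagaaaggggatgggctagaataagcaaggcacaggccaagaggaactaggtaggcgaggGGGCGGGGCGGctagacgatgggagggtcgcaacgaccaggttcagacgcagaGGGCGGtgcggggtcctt

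The Klf2 stretch of 221 bases was 71.5% GC with 28 CpG dinucleotides and 2 GC boxes, whereas windows of that length in the whole table had a median of 52.0% GC and 5 CpG, and 28.7% of the 32851 held a GC box. The Utf1 stretch of 183 bases was 59.6% GC with 10 CpG and held 3 GC boxes, 2 of which share a base, and 21.5% of windows of that length held any. The Esrrb windows of 250 bases differed from both, with 60.8% GC and 6 CpG at the first start, 52.0% GC and 3 CpG at the inner start, and 1 CACCC box each, a box that 28.1% of all windows of 250 bases held. CTTTGA was in none of the 4 stretches (13.8% of windows of 250 bases held it), nor was TCAAGGTCA, the site read by Esrrb and its relatives (0.387%). The Stat pattern TTCNNNGAA was at the first Esrrb start and was in 7.02% of windows of 250 bases. These are matches of letters and say nothing about binding.

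The summed expected counts of a library ranged from 16173322 to 54392719, with a median of 21854762, and DMSO B and AA B were the deepest. The labelled cell type was checked against markers. Cdh1 (E-cadherin) lay between 31.8 and 143 TPM (a level scaled to gene length and library depth) over all libraries and Epcam between 60.5 and 228 TPM, while the summed level of 10 fibroblast and feeder genes was 7.09 to 21.3 TPM, with Fap at 0 in all DMSO and AA libraries and Twist2 at 0 in all 2i and AA+2i libraries. Of the 8 tested, Col3a1 was called higher with AA+2i than with DMSO (log2 fold change 2.25, adjusted p = 0.0205 by edgeR), from a mean of 0.133 to 0.56 TPM. Thy1, which the study uses as a fibroblast marker, had means of 5.13, 12.6, 1.15 and 3.8 TPM with DMSO, AA, 2i and AA+2i. It did not pass against DMSO (adjusted p = 0.335, 0.0601 and 0.724). With AA against 2i, Thy1 was called higher (3.31, adjusted p = 0.00265) and Postn lower (−3.56, adjusted p = 0.0438). Twist1 and Prrx1 had DMSO means of 2.36 and 3.13 TPM. Of 7 primitive endoderm markers the sum was 0.99 to 1.82 TPM, with Sox17 and Foxa2 at 0 in all DMSO libraries. The sum of 6 trophoblast markers was 3.27 to 5.22 TPM with DMSO and 4.21 to 14.2 TPM with AA+2i, where Hand1 and Krt7 were higher without passing (adjusted p = 0.142 and 0.0947) and Eomes fell (−1.17, adjusted p = 0.0106). That of 5 germ cell markers was 2.03 to 2.59 and 10.5 to 20.3 TPM, with Dazl at 0 in both groups. Dppa3, also a naive marker, went from a mean of 0.173 to 13.8 TPM, while Prdm1 (1.08 to 0.633 TPM) and Sycp3 (1.0 to 0.52 TPM) were lower without passing and Ddx4 was at 0.0767 and 0.07 TPM. The part of these in the results below was not tested. Fut4 was the listed marker of pluripotent or reprogramming cells that was nearly absent, at 0 to 0.12 TPM. Pou5f1 was at 1865 to 9673 TPM, a value that would include the transgene. The libraries also differed in how expression depended on transcript GC content. DMSO A lay lowest and AA+2i C highest for GC-rich genes, and a fit that takes a GC curve out of each library (the GC correction) is given where it changes a call. In bulk RNA such as this, fewer expressing cells and less RNA per cell cannot be told apart.

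Klf2 and Klf5 are zinc finger factors of the Krüppel-like family that bind overlapping sets of CACCC and GC-rich sites and stand in for each other in part. Klf2 (chr8:74842932-74845555) was at 5.98, 6.45 and 7.35 TPM in DMSO A, B and C, at 8.76, 8.36 and 18.1 TPM with AA, at 10.7, 14.6 and 31.8 TPM under 2i and at 41.5, 32.5 and 95.4 TPM with AA+2i. Every treated library was above every DMSO library, the AA+2i libraries were above all others, and replicate C was the highest in each condition. Klf5 (chr14:99697910-99712624) was at 29.2, 31.7 and 39.8 TPM with DMSO, 46.4, 52.4 and 45.6 TPM with AA, 23.6, 18.2 and 22.2 TPM under 2i, and 47.0, 27.8 and 27.3 TPM with AA+2i. The AA libraries lay wholly above the DMSO libraries and the 2i libraries wholly below them, and the AA+2i libraries overlapped the DMSO range.

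Tbx3, a T-box factor that maintains naive cells and later acts in endoderm and limb, was nearly silent in the control. Its level (chr5:120120678-120134733) was 0.12, 0.05 and 0.15 TPM with DMSO, from 5, 6 and 6 counts, and 0.21, 0.06 and 0.27 TPM with AA. With 2i it was 0.58, 0.33 and 1.58 TPM, and with AA+2i 1.79, 1.51 and 4.95 TPM, from 92, 97 and 338 counts. All libraries with 2i, alone or with AA, were above all those without it. Tbx3 reached the 10 counts in 3 libraries needed for testing only through libraries with 2i, alone or with AA. Without that count filter Tbx3 was still called higher by edgeR with AA+2i than with DMSO, and than with AA.

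Esrrb, Nr0b1 and Nr5a2 are orphan members of the nuclear receptor family. Esrrb, an orphan receptor that can replace Nanog in stem cells in part, spans chr12:87702067-87862578 and was at 0.23, 0.15 and 0.31 TPM with DMSO and at 0.18, 0.17 and 0.29 TPM with 2i. With AA it was at 0.37, 0.47 and 1.22 TPM, and with AA+2i at 2.33, 2.53 and 2.73 TPM, from 100, 134 and 155 counts. The DMSO and 2i libraries overlapped, each AA library was above all of them, and the AA+2i libraries were above all others.

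Nr0b1 (Dax1), an unusual receptor without the family's DNA-binding domain that acts as a corepressor, lies at chrX:83437103-83441286. It was at 24.99, 21.9 and 11.7 TPM with DMSO, 17.2, 12.3 and 10.7 TPM with AA, 24.4, 24.5 and 22.3 TPM under 2i, and 15.2, 11.6 and 15.4 TPM with AA+2i. The 2i libraries lay above all those with AA, alone or with 2i, and the DMSO libraries overlapped all 3 treatments. Nr5a2 (Lrh-1), a receptor that binds the Oct4 gene and can replace Oct4 in reprogramming, lies at chr1:138740161-138857004. It was at 26.2, 15.7 and 15.3 TPM with DMSO, 22.0, 10.1 and 9.11 TPM with AA, 12.7, 8.17 and 8.86 TPM under 2i, and 17.1, 14.9 and 8.83 TPM with AA+2i. Replicate A was the highest in every condition, and only the 2i libraries were separate from the DMSO libraries, below them.

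Tcfcp2l1, a factor of the CP2 and grainyhead family that relays LIF and Stat3 signals and also answers to GSK3 inhibition, lies at chr1:120524522-120581744. Its level was 10.2, 7.84 and 8.89 TPM with DMSO, 22.1, 13.1 and 13.0 TPM with AA, 49.0, 31.8 and 25.9 TPM under 2i, and 65.3, 61.6 and 33.8 TPM with AA+2i. DMSO, AA and 2i formed a series without overlap, in that order, while the 2i and AA+2i ranges overlapped.

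Prdm14, Utf1 and Sall4 work through chromatin. Prdm14 and Utf1 reached the 10 counts in 3 libraries needed for testing only through libraries with AA, alone or with 2i. Prdm14, a zinc finger protein that holds back Dnmt3b and FGF signalling and is needed by primordial germ cells, lies at chr1:13103538-13117244 and was counted 4, 2 and 1 times with DMSO, 11, 30 and 25 times with AA, 2, 2 and 0 times under 2i, and 7, 18 and 16 times with AA+2i. In level this was 0.03 to 0.19 TPM with DMSO, 0.41 to 0.78 TPM with AA, 0.00 to 0.07 TPM under 2i and 0.27 to 0.55 TPM with AA+2i, so every library with AA was above every library without it. The 0 counts in 2i C allow up to 0.177 CPM (counts scaled to library depth, for 3 counts and counting error only).

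Utf1, a chromatin-bound target of Oct4 and Sox2 that marks undifferentiated cells, lies at chr7:147129688-147131011. Its counts were 0, 5 and 0 with DMSO and 0, 0 and 2 with 2i, against 2, 83 and 208 with AA and 14, 2 and 58 with AA+2i. In AA replicates A, B and C the levels were 0.18, 2.63 and 14.8 TPM, and those with AA+2i were 1.22, 0.14 and 3.82 TPM. Libraries at 0 counts had upper limits of 0.131 to 0.185 CPM. Over the 3 libraries of each condition, 293 counts with AA against 2 with 2i gave a ratio of CPM of 90.0 (exact 95% interval 24.7 to 746, which covers counting error only), and against the 5 with DMSO the ratio was 49.4 (20.9 to 153). AA C held 208 of the 293 counts. Without replicate C, 85 counts with AA were at least 16.4-fold higher than with 2i, taking 3 counts over the group as the limit of its 0 counts, and the ratio to DMSO was 15.1 (6.23 to 47.8).

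Sall4, a spalt family zinc finger protein that recruits the NuRD repressor complex and supports Oct4 expression, lies at chr2:168573832-168593443. Its level was 45.3, 33.9 and 35.4 TPM with DMSO, 49.5, 32.0 and 43.7 TPM with AA, 37.6, 22.2 and 27.9 TPM under 2i, and 39.7, 33.6 and 34.8 TPM with AA+2i. No 2 conditions were separate. Sall4 had 3 annotated transcripts, and the mean transcript length that RSEM assigned to it varied from 2942 bases in DMSO A to 5064 bases in 2i C. With AA+2i against DMSO the log2 fold change was 0.34 from counts and −0.07 from log2(TPM + 1), and neither passed its test. Nr5a2, at 3635 bases in every library, had −0.46 from log2(TPM + 1) and −0.32 from counts. The part of transcript length in these differences was not tested.

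**Figure D1:**
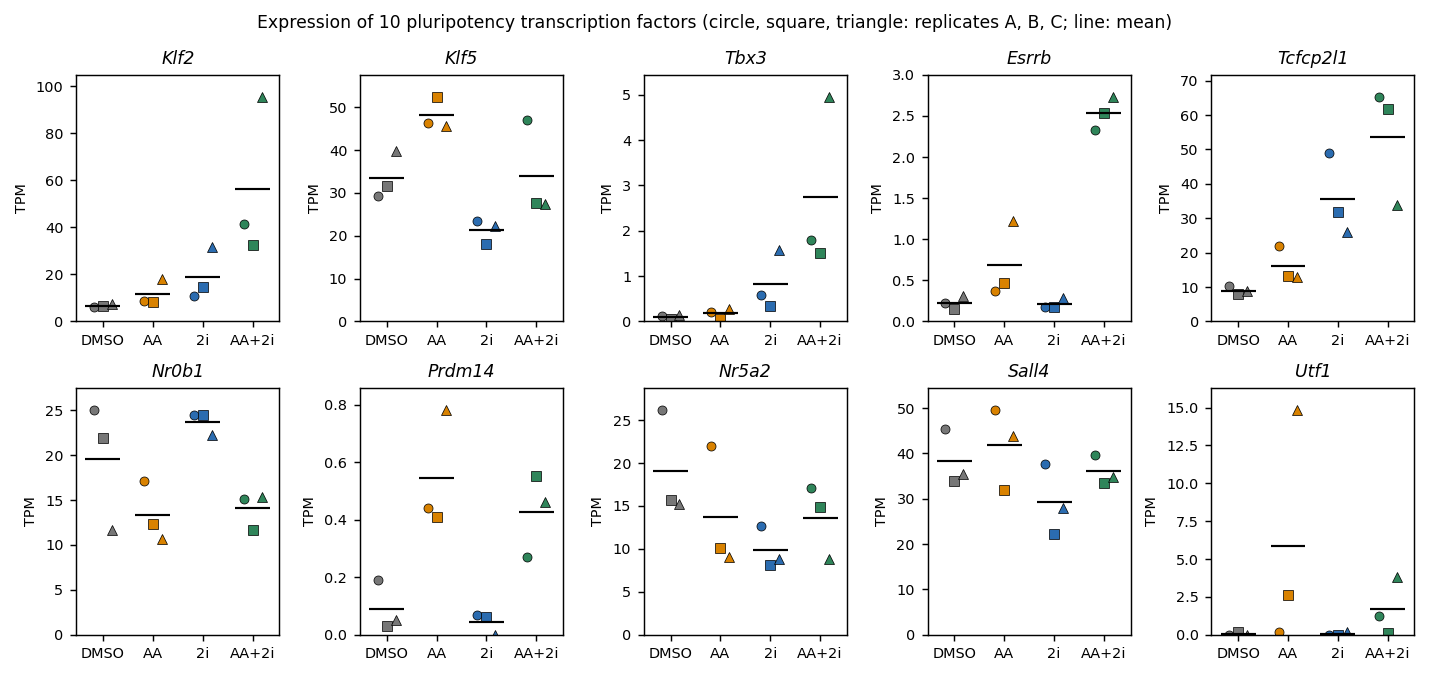
TPM (vertical axis, linear, from 0) of each of the 10 members in the 12 libraries by condition (horizontal axis); symbols are replicates A, B and C and lines are means. The AA+2i libraries of Klf2 (32.5 to 95.4 TPM) and Esrrb (2.33 to 2.73 TPM) lie above all other libraries, and those of Sall4 lie within the DMSO range or just below it.

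The members fell into an abundant and a scarce class in the control. In mean DMSO level, Sall4 (38.2 ± 6.20 TPM, SD, n = 3) and Klf5 (33.6 ± 5.54 TPM) came first and overlapped, followed by Nr0b1 (19.5 ± 6.95 TPM) and Nr5a2 (19.0 ± 6.17 TPM), which overlapped, then Tcfcp2l1 (8.98 ± 1.19 TPM) and Klf2 (6.59 ± 0.696 TPM), each separate from its neighbours. Esrrb, Tbx3, Prdm14 and Utf1, at means of 0.23, 0.107, 0.09 and 0.0667 TPM, overlapped each with the next. With AA+2i the order began with Klf2 (56.5 ± 34.0 TPM) and Tcfcp2l1 (53.6 ± 17.2 TPM), which overlapped each other and Tcfcp2l1 also overlapped Sall4 (36.0 ± 3.27 TPM). The scarce members stayed under the others, with Tbx3 at 2.75 ± 1.91 TPM, Esrrb at 2.53 ± 0.20 TPM, Utf1 at 1.73 ± 1.89 TPM and Prdm14 at 0.427 ± 0.143 TPM.

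AA+2i was compared with DMSO to ask which members both agents together moved. Klf2, Tbx3, Esrrb, Tcfcp2l1 and Prdm14 rose, none fell, and Klf5, Nr0b1, Nr5a2, Sall4 and Utf1 did not pass the test (edgeR's quasi-likelihood test on counts, Benjamini-Hochberg adjusted p under 0.05 over 13400 genes). These were 5 of 10 members, where 8.34% of all tested genes were called and 3.93% were called higher. The median log2 fold change of the members was 2.70, and that of all tested genes was −0.02.

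Tbx3 had a log2 fold change of 5.08 ± 0.90 (SE, adjusted p = 0.00608), and Esrrb one of 3.70 ± 0.54 (adjusted p = 0.00211). Klf2 rose by 3.37 ± 0.61 (adjusted p = 0.00671) and Tcfcp2l1 by 2.74 ± 0.30 (adjusted p = 0.000499), both on the log2 scale. The change of Prdm14 was 2.65 ± 0.72 with an adjusted p of 0.0466, close to the threshold, its adjusted p ranged from 0.0108 to 0.342 over the alternatives, and it was not called without the count filter, which it had passed only through libraries with AA. Utf1 had a log2 fold change of 4.35 ± 1.72 with an adjusted p of 0.15. The same 5 members that rose had TPM ranges wholly above DMSO, which 9.6% of all genes had, and no member lay wholly below, as 22.5% of all genes did. Klf5, Nr0b1, Nr5a2 and Sall4 had log2 fold changes between −0.32 and 0.34. Without the replicate B libraries 0 members were called here (4 at an unadjusted p under 0.05) and 18 of all 13400 genes, against 1117 with it. Without replicate C or without AA+2i C alone 4 were called, without Prdm14, and without replicate A or without DMSO A alone all 5.

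**Figure D2:**
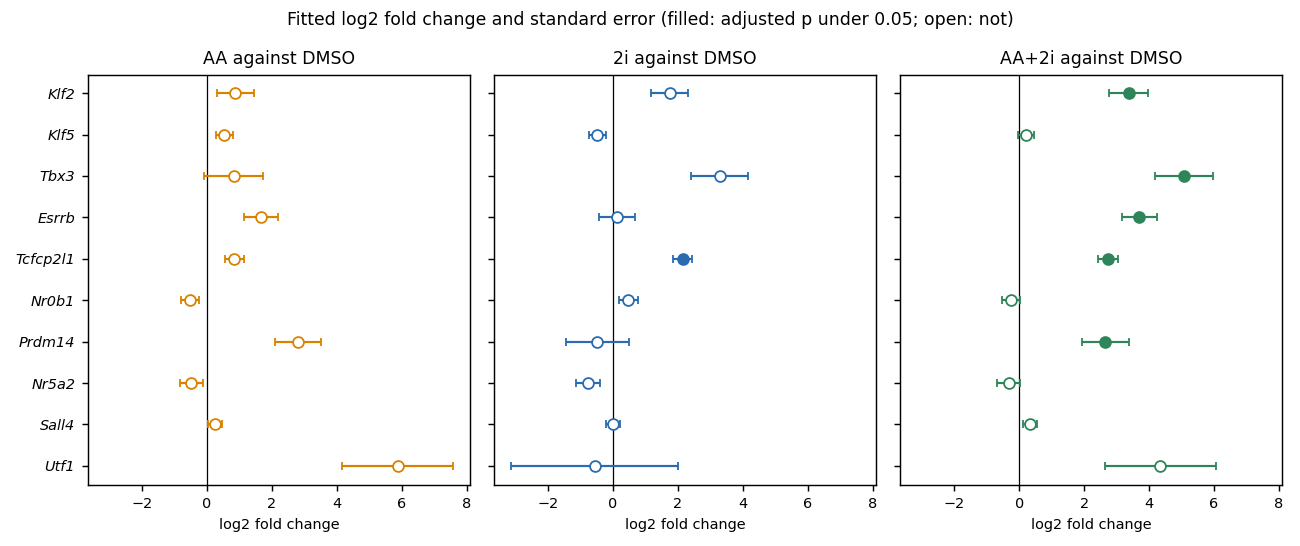
Fitted log2 fold change of each member (horizontal axis, log2 of counts) against DMSO in 3 panels for AA, 2i and AA+2i; bars are standard errors and filled points have an adjusted p under 0.05. No point is filled with AA, Tcfcp2l1 alone with 2i, and 5 members with AA+2i.

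The GC content of the transcripts moved with this comparison. At the GC content of Klf2 (61.56%) the GC curve stood at −1.96 in DMSO A and 1.35 in AA+2i C, in log2 units around the mean of all libraries, with means of −0.55 over the DMSO and 0.61 over the AA+2i libraries. At that of Tcfcp2l1 (46.98%) the means were 0.11 and −0.12. After the GC correction, Klf2 had a log2 fold change of 1.81 and an adjusted p of 0.0545, and Klf5 (60.31% GC) had one of −1.03 (adjusted p = 0.282) in place of 0.21. Tbx3 (4.77), Esrrb (3.20), Tcfcp2l1 (2.98) and Prdm14 (2.73) stayed called, which made 4 of 10 members where 19.7% of all genes were called. The tested genes had a median GC content of 50.6%, and 6 of the 10 members were above it.

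**Figure D3:**
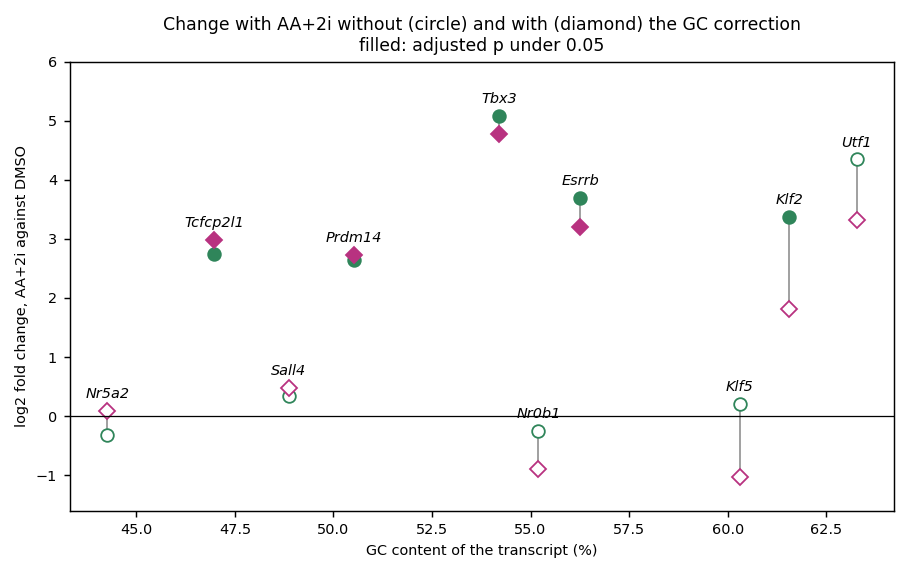
Log2 fold change with AA+2i against DMSO (vertical axis) of each member without (circles) and with (diamonds) the GC correction, by GC content of the transcript in percent (horizontal axis); filled points have an adjusted p under 0.05. Klf2 moves from 3.37 to 1.81 and Klf5 from 0.21 to −1.03, while Tcfcp2l1 moves from 2.74 to 2.98.

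The comparison of AA with DMSO asks what ascorbic acid moved alone. No member was called, where 1.34% of all tested genes were. By unadjusted p under 0.05 there were 4, Esrrb, Tcfcp2l1, Prdm14 and Utf1, all higher with AA, and 1263 of all 13400 genes. DESeq2 called Prdm14 and Utf1, limma on log2(TPM + 1) called 0 and limma on log2(TPM + 0.1) called Prdm14.

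The largest fitted changes were those of the scarcest members. Utf1 had a log2 fold change of 5.87 ± 1.70 (adjusted p = 0.171), with libraries B and C high and A no higher than DMSO B, and Prdm14 one of 2.80 ± 0.71 (adjusted p = 0.105). Esrrb stood at 1.66 ± 0.52 (adjusted p = 0.228) and Tcfcp2l1 at 0.84 ± 0.29 (adjusted p = 0.282), both higher with AA in all 3 replicate letters. Same-letter libraries of DMSO and AA deviated together. With the letter as a replicate block in edgeR, Esrrb (adjusted p = 0.0335), Tcfcp2l1 (0.0411) and Utf1 (0.0499) passed. These were 3 of 10 members, where 4.43% of all genes were called. The block was fitted over all 12 libraries, those of AA+2i included, which the letters did not pair with the others. After the GC correction Tcfcp2l1 (adjusted p = 0.00685), Prdm14 (0.0324) and Utf1 (0.0177) passed, with 4.15% of all genes called, and the same 3 passed with the correction and the block together (adjusted p = 0.00191, 0.0222 and 0.00216, 11.1% of all genes). The TPM of 5 members, Klf2, Klf5, Esrrb, Tcfcp2l1 and Prdm14, lay wholly above DMSO, where 5.36% of all genes did, and none wholly below (4.13%). Nr0b1 (−0.52) and Nr5a2 (−0.48) were lower with AA in all 3 letters and did not pass (adjusted p = 0.701 and 0.887). The members' median log2 fold change was 0.83, beside −0.01 over all genes.

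The comparison of 2i with DMSO does the same for the inhibitors. Tcfcp2l1 rose by 2.14 ± 0.30 on the log2 scale (adjusted p = 0.00267) and was the only member called, 1 of 10 where 4.42% of all genes were called and 1.59% were called higher. Tbx3, at 3.28 ± 0.88 (adjusted p = 0.0632), and Klf2, at 1.74 ± 0.58 (adjusted p = 0.137), had TPM ranges wholly above DMSO without passing, as 5.19% of all genes had. Esrrb (0.12 ± 0.56) and Sall4 (−0.01 ± 0.22) were near 0.

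Klf5 and Nr5a2 had TPM wholly below DMSO, as 14.7% of all genes had, with log2 fold changes of −0.48 ± 0.25 (adjusted p = 0.383) and −0.78 ± 0.37 (adjusted p = 0.327). Letters paired the libraries here too, and with the replicate block Klf2 (adjusted p = 0.00697) and Tbx3 (0.000894) rose and Nr5a2 fell by 0.73 on the log2 scale (0.0473), 4 of 10 members with Tcfcp2l1, where 13.3% of all genes were called. With the GC correction Tbx3 passed (adjusted p = 0.034), beside Tcfcp2l1, with 12.3% of all genes called, and Klf2 stood at 0.61 (adjusted p = 0.559). With correction and block together Klf2 stood at 0.84 (adjusted p = 0.232), while Tbx3, Tcfcp2l1, Klf5 (−1.23, adjusted p = 0.0378) and Nr5a2 (−0.50, adjusted p = 0.0129) passed, with 24.9% of all genes called. Tcfcp2l1 was not called without the replicate B libraries, when 0 members (2 at an unadjusted p under 0.05) and 1 of all genes were called, nor without replicate C (0 called, 3 unadjusted, 52 of all genes), and without AA+2i C, which enters the shared estimate of the spread, Tbx3 was called too. The members' median log2 fold change was 0.06 (all genes, −0.02).

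AA and 2i were then set against each other directly. Prdm14 was higher with AA by 3.30 ± 0.76 on the log2 scale (adjusted p = 0.0189) and Klf5 by 1.01 ± 0.25 (adjusted p = 0.0241), whereas Tcfcp2l1 was lower with AA by a log2 fold change of −1.30 ± 0.29 (adjusted p = 0.0151). Prdm14 was called here without the count filter too. These 3 of 10 members compare with 9.45% of all genes called, 5.88% higher with AA and 3.57% lower. Utf1 (6.43, adjusted p = 0.0557) and Nr0b1 (−1.0, adjusted p = 0.056) were just outside the threshold. With the replicate block, 7 members passed where 16.9% of all genes did. The letters paired the AA and 2i libraries, but the block was again fitted with the AA+2i libraries included. The further 4 members were Tbx3 (adjusted p = 0.00108, lower with AA), Esrrb (0.0176, higher), Nr0b1 (0.0258, lower) and Utf1 (0.0156, higher). After the GC correction Klf5 was at 1.55 with an adjusted p of 0.129, and 5 members passed where 19.6% of all genes did, Tbx3, Esrrb, Tcfcp2l1, Prdm14 and Utf1. With correction and block together Klf5 was at 1.4 (adjusted p = 0.0162), and 7 members passed where 30.5% of all genes did. Without the replicate B libraries 0 members were called (5 at an unadjusted p under 0.05, 74 of all genes called), without replicate C 0 (7 unadjusted, 406 of all genes) and without replicate A all 3. The members' median log2 fold change was 0.27 beside 0.00 over all genes. In TPM, Klf5, Esrrb and Prdm14 lay wholly above 2i (17.4% of all genes did) and Tbx3, Tcfcp2l1 and Nr0b1 wholly below (7.66%).

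Adding 2i to AA raised 4 members. Tbx3 rose by 4.25 ± 0.84 (adjusted p = 0.0126), Klf2 by 2.50 ± 0.58 (0.0283), Esrrb by 2.05 ± 0.48 (0.0293) and Tcfcp2l1 by 1.90 ± 0.29 (0.00366) on the log2 scale. Of all tested genes, 6.1% were called in this comparison and 2.81% were called higher. The same 4 had TPM wholly above AA, which 7.66% of genes had, and no member was wholly below (16.8%). Prdm14 was at −0.15 ± 0.57 and Utf1 at −1.52 ± 1.24 (adjusted p = 0.902 and 0.585), and the median over the members was 0.22, beside −0.01 over all genes. After the GC correction Klf2 was at 1.41 (adjusted p = 0.134) and the other 3 stayed called, with 15.1% of all genes called. Leaving out replicate A left Tcfcp2l1 called, replicate B 0 members (4 at an unadjusted p under 0.05, 7 of all genes called), replicate C Klf2 and Esrrb, and AA+2i C alone Tbx3 and Tcfcp2l1.

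Adding AA to 2i raised Esrrb, by 3.58 ± 0.53 on the log2 scale (adjusted p = 0.0103). It was the only member called, 1 of 10 where 0.91% of all tested genes were called and 0.761% were called higher. At an unadjusted p under 0.05 there were 7 members and 1277 of all 13400 genes. Prdm14, at 3.15 ± 0.78 (adjusted p = 0.10), passed after the GC correction (adjusted p = 0.0331), as did Tcfcp2l1 (0.71, adjusted p = 0.0254), beside Esrrb, with 4.65% of all genes called. In the corrected values the letters paired these libraries too, and with correction and block together Tbx3 (adjusted p = 0.00588), Nr5a2 (0.011) and Utf1 (0.0148) also passed, 6 of 10 members where 11.5% of all genes did. Klf2, Klf5, Esrrb and Prdm14 had TPM wholly above 2i (9.72% of all genes) and Nr0b1 wholly below (6.35%). The call of Esrrb was lost without replicate A, B or C, at log2 fold changes of 3.48 to 3.76 and with 12, 0 and 0 of all genes called, and kept without DMSO A or AA+2i C alone. The median of the members was 1.15, beside 0.00 over all genes.

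Whether AA and 2i together did more than the sum of their separate changes was tested by the interaction on the log2 scale. No member was called, where 0.0149% of all genes were. Esrrb had the interaction farthest from 0 among the called members, at 1.92 ± 0.74 (adjusted p = 1.0 by edgeR's quasi-likelihood test), and it was the only member with an unadjusted p under 0.05. Taken letter by letter it was 2.98, 1.93 and 1.36. The letters did not pair the AA+2i libraries with the others in these uncorrected values, so these 3 values rest on an arbitrary matching. The interaction was 0.97 ± 1.2 for Tbx3, 0.75 ± 0.79 for Klf2, 0.35 ± 1.1 for Prdm14 and −0.24 ± 0.40 for Tcfcp2l1. DESeq2, limma on log2(TPM + 1) and the GC correction also called 0 of the 10.

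**Figure D4:**
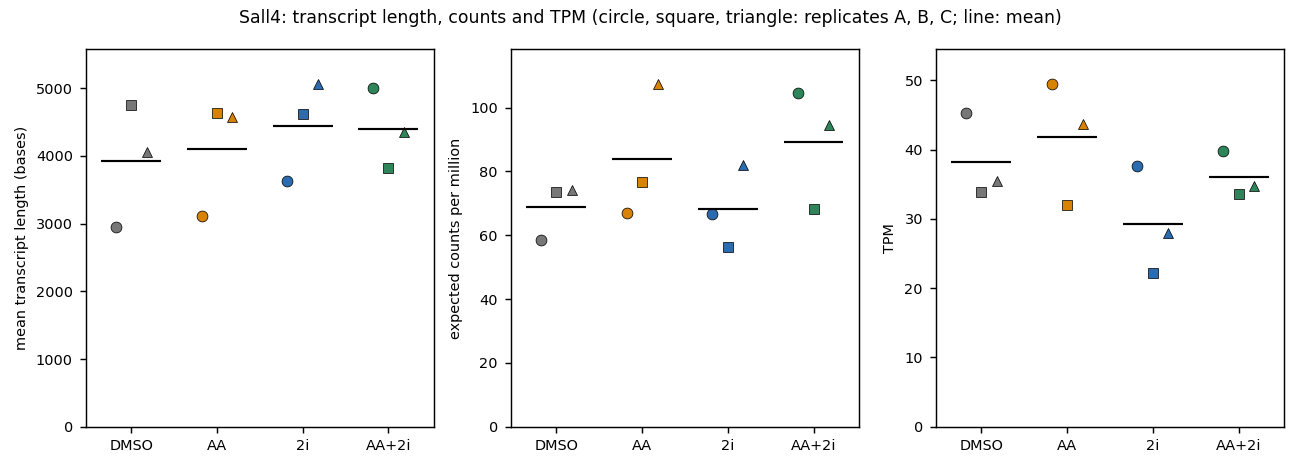
Sall4 in the 12 libraries by condition (horizontal axes), with mean transcript length in bases, CPM and TPM on linear vertical axes from 0; symbols are replicates A, B and C and lines are means. DMSO A has the shortest mean transcript (2942 bases), the lowest DMSO count (58.4 CPM) and the highest DMSO level (45.3 TPM).

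The patterns of the 5 members that rose with AA+2i were compared with those of other genes across the 12 libraries, which also differ in depth and GC dependence. The root-mean-square difference of centred log2 CPM was used as a measure of likeness over 6367 genes whose SD was at least 0.5, and a smaller value means a closer pattern. The nearest genes to Klf2 were Gpr4 (0.45), Tlx1 (0.47) and Zfp703 (0.52), and those to Tbx3 were Sprr2a1 (0.52), Sprr2a2 (0.52) and Rhob (0.64). For Esrrb they were Ido2 (0.56), Cyp2ab1 (0.59) and Triml1 (0.60), for Tcfcp2l1 Chn2 (0.37), Plcb4 (0.38) and Dnahc8 (0.39), and for Prdm14 Adam32 (0.41), Fsip1 (0.45) and Ttn (0.47). Among the members themselves the nearest to Tbx3 was Klf2 (0.77, rank 14 among the 6367 genes compared), the nearest to Esrrb was Klf2 (0.90, rank 78), and Tcfcp2l1 and Prdm14 had no member nearer than rank 407. Sprr2a1 and Sprr2a2 are near-identical genes whose counts RSEM shares between them, so they are not separate observations.

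Partner genes of the same network were followed from a list of 26, of which 25 were tested. With AA 7 of 25 rose and none fell, where 0.866% of all genes were called higher, led by Dppa5a (4.76 ± 0.39, adjusted p = 0.00064), Dppa2 (4.71 ± 0.41, adjusted p = 0.00064), Gdf3 (3.59 ± 0.37, adjusted p = 0.00146) and Zfp42 (Rex1, 2.77 ± 0.37, adjusted p = 0.00533) in log2 fold change. Nanog, a core factor of the network, also rose with AA by 2.02 ± 0.34 (adjusted p = 0.0168), from 4.41 ± 2.37 to 17.8 ± 1.54 TPM. With 2i 4 of 25 fell and none rose, Tdgf1 (−1.97 ± 0.27), Fgf4 (−1.16 ± 0.17), Foxd3 (−3.24 ± 0.63) and Mycn (−1.47 ± 0.32), where 2.83% of all genes were called lower. With AA+2i 8 rose and 2 fell, where 3.93% of all genes were called higher and 8.34% were called in either direction. Nanog reached 36.6 ± 4.62 TPM, with a log2 fold change of 3.23 ± 0.36 (adjusted p = 0.000499), and Dppa3, a germ cell and naive marker, rose by 6.75 ± 0.86 (adjusted p = 0.00103). The median log2 fold changes of the 25 were 0.73, −0.12 and 0.65 with AA, 2i and AA+2i. With the replicate block there were 10 higher calls for AA (4.43% of all genes called), and for 2i there were 1 higher and 7 lower (13.3% of all genes called). Pou5f1, Sox2 and Klf4, whose counts would include the transgenes, did not pass in any comparison with DMSO.

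**Figure D5:**
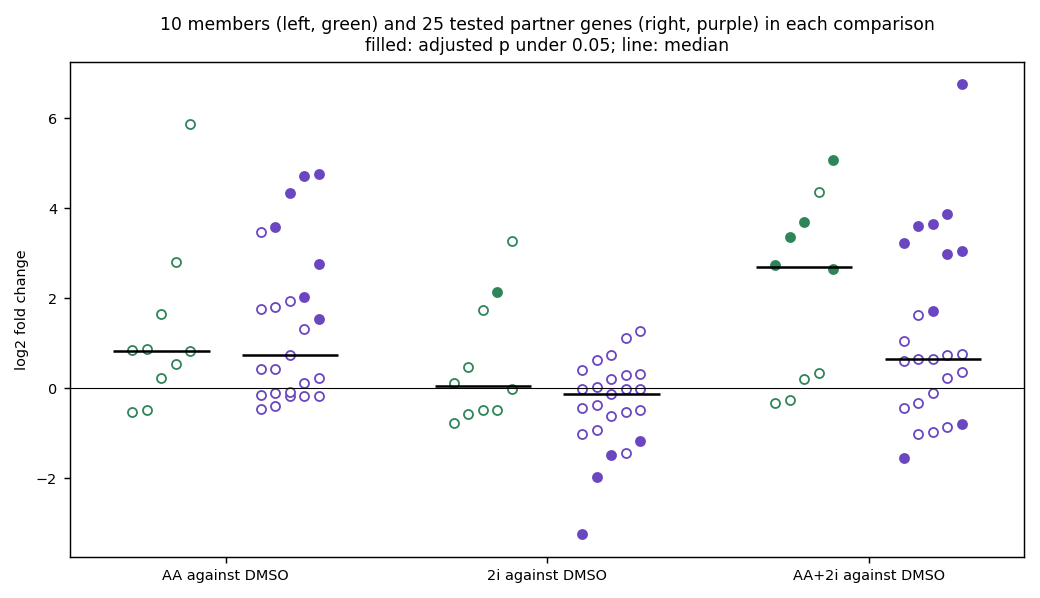
Log2 fold change (vertical axis) of the 10 members (green) and the 25 tested partner genes (purple) in each comparison with DMSO (horizontal axis); filled points have an adjusted p under 0.05 and lines are medians. With AA 7 partners and no member are filled, and with AA+2i 8 partners and 5 members are filled above 0.

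Relatives of the members from the same gene families were followed as well, and 28 of 37 listed were tested. With AA Grhl2 rose (3.05 ± 0.56, adjusted p = 0.0246) and Sall3 fell (−1.62 ± 0.31, adjusted p = 0.0296), with 2i none was called, and with AA+2i Klf8 (1.27 ± 0.30) and Grhl1 (0.75 ± 0.19) rose and Sall3 (−1.96 ± 0.31) and Klf3 (−0.68 ± 0.16) fell, 4 of 28 beside 8.34% of all genes. Their median log2 fold change with AA+2i was −0.09.

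Genes of the primed epiblast, the state that follows naive pluripotency, went in both directions. Of 13 tested, Otx2, a factor that drives cells out of the naive state, rose with AA by 3.65 ± 0.42 (adjusted p = 0.00284), fell under 2i (−1.76 ± 0.41, adjusted p = 0.0377) and rose under AA+2i by 1.54 ± 0.39 (adjusted p = 0.0359) on the log2 scale. Its mean level was 5.57 TPM in DMSO cultures and 68.7 TPM in AA cultures, against 1.44 TPM under 2i and 14.1 TPM under both agents. Wnt8a, a Wnt target as well as a ligand, rose with 2i (3.90 ± 0.47) and AA+2i (4.14 ± 0.48), and Eomes fell with both (−1.03 ± 0.23 and −1.17 ± 0.23). The list had a median of 0.41 with AA, −0.37 under 2i and −0.25 under both agents.

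Among 20 genes listed for LIF, MEK and GSK3 signalling, 1 rose and 2 fell with 2i, and the same 3 with AA+2i. Of all genes, 4.42% and 8.34% were called in these comparisons. Axin2, a target of β-catenin, rose by 5.83 ± 0.77 with 2i (adjusted p = 0.00202) and 6.10 ± 0.77 with AA+2i (adjusted p = 0.00103) on the log2 scale, from 0.14 ± 0.08 TPM with DMSO to 6.76 ± 5.24 and 8.01 ± 3.08 TPM. Dusp6, a phosphatase induced by ERK, fell from 62.5 ± 8.65 TPM to 6.89 ± 0.233 and 6.35 ± 0.246 TPM, log2 fold changes of −3.00 ± 0.21 and −3.09 ± 0.21. Spry4, another ERK target, fell by 1.22 and 1.08 in log2 fold change. The ERK targets Spry2, Etv4, Etv5 and Egr1 did not pass with 2i by edgeR (adjusted p = 0.185, 0.158, 0.172 and 0.0703). The TPM of each lay wholly below DMSO, as that of 14.7% of all genes did. With the replicate block 2 of the 20 rose and 7 fell with 2i, where 13.3% of all genes were called. After the GC correction 2 rose and 5 fell, where 12.3% of all genes were called. With AA 0 of the 20 were called by edgeR, also with the replicate block. Tcf7l1 itself had log2 fold changes of 0.73, 1.27 and 1.63 under the 3 treatments in that order and did not pass (adjusted p = 0.89, 0.306 and 0.113). These 3 comparisons share the DMSO libraries, so their values are not independent of each other.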

How the data were processed

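RNA of 12 cultures was sequenced single-end from TruSeq libraries. The authors trimmed reads and aligned them with Bowtie to RefSeq genes of mm9, and the deposited RSEM 1.2.4 files give expected counts and TPM per gene, counted without strand, one file per library. Reads shared by similar genes were divided by RSEM. A single TPM entry of AA C could not be read as a number, and its value was worked out from that library's FPKM.

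After rounding, the expected counts went into edgeR 4.0.16 (quasi-likelihood test, RLE factors, R 4.3.3) over all 12 libraries and 4 groups, leaving 8 residual degrees of freedom, for the 13400 genes that reached 10 counts in 3 or more libraries. Adjusted p-values are Benjamini-Hochberg over those genes. The study's own test (EBSeq) was not used here. Alternatives were TMM factors, DESeq2 1.42.0, limma 3.58.1 on log2(TPM + 1) and log2(TPM + 0.1), no count filter, only the groups compared, the replicate letter as a block, a GC correction (loess, span 0.4, on transcript GC, known for 99.16% of tested genes), the correction with the block, and leaving out replicates. The scripts were tested on simulated data.

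Letters were taken to pair libraries where every same-letter correlation of deviations from group means exceeded 0.1, which held for DMSO with AA (0.608 to 0.894), DMSO with 2i (0.177 to 0.787) and AA with 2i (0.241 to 0.835). Pairs with AA+2i ranged from −0.588 to 0.81, and after the GC correction those of 2i with AA+2i passed (0.178 to 0.628). Every block fit used all 12 libraries with letter effects shared by the 4 groups. Its p-values therefore rest in part on AA+2i libraries that the letters did not pair. No 2 libraries were alike, with at least 14945 genes differing.

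The members and gene lists were chosen with earlier results of these data known. All members are described, and genes of other lists are named where they passed the test or bear on a result.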

Additional observations from a re-analysis of the deposited data

Results flagged for a closer look

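Nr5a2 was lower with AA than with DMSO in 3 of 3 replicate letters (log2 differences of −0.37, −0.41 and −0.76) and higher with AA+2i than with 2i in 3 of 3 (0.46, 0.79 and 0.10). The difference between these changes, the interaction of AA and 2i, was 0.94 ± 0.52 (SE) on the log2 scale and did not pass (adjusted p = 1.0 by edgeR's quasi-likelihood test). Without the GC correction the letters did not pair 2i with AA+2i libraries (correlation of 0.067 in B). The differences of AA+2i from 2i by letter therefore rest on an arbitrary matching, and the TPM ranges of these groups overlapped.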

How the results depend on the processing

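Of 14 calls of a member in a comparison, 14 were kept by TMM factors, DESeq2, the replicate block and the GC correction with the block, 13 by no count filter and by limma on log2(TPM + 0.1), 12 by limma on log2(TPM + 1), and 11 by the GC correction and by fitting only the groups compared. Leaving out the replicate B libraries, which include the 2 deepest, lost all 14, replicate C 8 and replicate A 4, and none of the 14 changed direction. Calls over all genes fell with them, for AA+2i against DMSO from 1117 to 18, 296 and 667. Leaving out DMSO A or AA+2i C alone, both chosen after seeing the data, kept 14 and 11.

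The number of members called with AA against DMSO was 0, and 2 by DESeq2, 1 by limma on log2(TPM + 0.1), and 3 with the replicate block, the GC correction or both. With 2i against DMSO it was 1, and 3 by DESeq2, 4 with the block, 2 with the correction, 4 with both, and 0 to 2 when replicates or single libraries were left out. With AA+2i against DMSO it was 5, 4 by limma on log2(TPM + 1), without the count filter, with only the groups compared or with the correction, 6 with correction and block, and 0 to 5 on leaving out. With AA+2i against AA it was 4, 2 when only the groups compared were fitted, 3 with the correction, 6 with both, and 0 to 4 on leaving out. With AA+2i against 2i it was 1, and 2 by DESeq2 and by limma on log2(TPM + 0.1), 3 with the block (the letters paired these libraries only after the correction), 3 with the correction, 6 with both, and 0 to 1 on leaving out. With AA against 2i it was 3, and 7 by DESeq2, 7 with the block, 5 with the correction, 7 with both, and 0 to 4 on leaving out. The block gave 5 and 4 members for AA+2i against DMSO and against AA. Of all 13400 genes the block called 4228 and 1992 there, and 606 for AA+2i against 2i. Correction and block together called 4850 genes for AA+2i against DMSO and 3770 for AA+2i against AA. Over all genes, DESeq2 called 454, 1099, 1879, 1309, 468, 1765 and 26 genes where edgeR called 179, 592, 1117, 817, 122, 1266 and 2, in the order AA, 2i and AA+2i against DMSO, AA+2i against AA and 2i, AA against 2i and the interaction. Where a count changed, the cause was not tested.

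These log2 fold changes, none of them called, changed sign. With 2i against DMSO, Esrrb went to −0.02 and −0.07 by limma (pseudocounts 1 and 0.1), −0.20 with the GC correction and −0.14 with correction and block, and Sall4 to 0.00 with only the groups compared, 0.05 with the correction and 0.02 with both. With AA+2i against DMSO, Klf5 went to −0.02 by limma with either pseudocount, −1.03 with the correction and −0.88 with both, Nr5a2 to 0.09 with the correction, alone or with the block, and Sall4 to −0.07 and −0.08 by limma. With AA+2i against AA, Nr0b1 went to −0.15 with the correction and Sall4 to −0.19 by limma with either pseudocount. The Prdm14 interaction went to −0.05 by limma with a pseudocount of 1. On leaving out replicates or single libraries, the ranges that crossed 0 were, for 2i against DMSO, Esrrb −0.09 to 0.35, Prdm14 −1.44 to 0.51, Sall4 −0.11 to 0.11 and Utf1 −4.05 to 3.26. For AA+2i against DMSO they were Klf5 −0.10 to 0.47, Nr0b1 −0.64 to 0.03 and Nr5a2 −0.54 to 0.03, for AA+2i against AA Prdm14 −0.49 to 0.07, Nr5a2 −0.04 to 0.45 and Sall4 −0.13 to 0.25, and for the interaction Klf2 −0.01 to 1.02 and Prdm14 −0.66 to 0.96. Over all alternatives the interaction also crossed 0 for Utf1 (−4.58 to 2.96), Klf5 (−0.09 to 0.39) and Sall4 (−0.09 to 0.36). Few counts limit Utf1, Prdm14, Tbx3 and Esrrb, whose DMSO libraries held 0 to 14 counts each.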
